A study of Mus musculus with 2 samples.

Results

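The exchangers and cotransporters that carry bicarbonate, protons, chloride, phosphate, sulfate and calcium across cell membranes were compared between the whole mouse blastocyst and its inner cell mass (ICM). Genes were taken by their symbol, as all members of the solute carrier families Slc4, Slc8, Slc9, Slc12, Slc20, Slc24, Slc26 and Slc34, and 52 of the 19559 listed genes belonged to them. The embryos were at the E3.75 stage and came from B6CBAF1 mothers and CD-1 fathers, the same cross for both groups, with no treatment or altered allele named. One group was the intact blastocyst and the other the ICM after immunosurgery, in which antibody and complement lyse the outer epithelium, the trophectoderm. Each group was 1 library from a separate sample, and the labels do not state how many embryos were pooled. The intact embryo also contains its ICM, and in such bulk RNA fewer cells of a type and less RNA per cell cannot be told apart.

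These carriers use gradients set up mainly by the sodium pump. Sodium-proton exchangers (Slc9) expel acid and bring in sodium, bicarbonate carriers (Slc4) move base in or out, and cation-chloride cotransporters (Slc12) set cell chloride and volume. In the blastocyst, sodium entry at the apical face of the trophectoderm and its extrusion by the pump at the basolateral face are known to draw fluid into the blastocoel.

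Sequences upstream of some members with large differences are given first. Of the 17 members with a measurable level, 8 had an entry in the RefSeq promoter table (build GRCm38.p6), with 11 annotated starts. Slc4a9, Slc4a11, Slc12a2, Slc20a2, Slc24a6, Slc26a2 and Slc26a11 were among those without one. Shown 5′ to 3′ are the 250 bases before both starts of Slc20a1 and before the start of Slc34a2, which were lower in the ICM library, and of Slc24a5, the member with the highest ICM level. Capitals mark matches, on either strand, to the letters searched for 5 kinds of transcription factor. Those of TFAP2 factors were GCCNNNGGC. Those of TEAD factors, which act in the outer layer, were GGAATG. Those of GATA factors were written as AGATAA. Those of CDX factors were written as TTTATG. Those of the general factor SP1 were GGGCGG.
Slc20a1, first start (chr2:129198523-129198772, + strand): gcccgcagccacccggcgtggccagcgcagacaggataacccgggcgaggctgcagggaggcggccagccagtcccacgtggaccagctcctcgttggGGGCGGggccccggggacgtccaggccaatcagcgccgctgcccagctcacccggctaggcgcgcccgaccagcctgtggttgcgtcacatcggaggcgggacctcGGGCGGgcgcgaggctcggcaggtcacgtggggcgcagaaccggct
Slc20a1, second start (chr2:129206846-129207095, + strand): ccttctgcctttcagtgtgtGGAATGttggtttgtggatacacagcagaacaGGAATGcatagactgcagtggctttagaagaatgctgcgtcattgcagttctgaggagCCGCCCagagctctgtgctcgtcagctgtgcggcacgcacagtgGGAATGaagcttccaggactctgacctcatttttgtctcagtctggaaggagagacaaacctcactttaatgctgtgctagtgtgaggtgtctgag
Slc34a2 (chr5:53049103-53049352, + strand): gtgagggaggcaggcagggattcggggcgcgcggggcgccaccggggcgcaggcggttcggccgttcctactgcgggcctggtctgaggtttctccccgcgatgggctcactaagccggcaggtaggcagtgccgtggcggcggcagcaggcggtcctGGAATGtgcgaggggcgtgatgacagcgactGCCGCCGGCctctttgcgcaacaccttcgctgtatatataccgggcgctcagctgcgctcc
Slc24a5 (chr2:125067877-125068126, + strand): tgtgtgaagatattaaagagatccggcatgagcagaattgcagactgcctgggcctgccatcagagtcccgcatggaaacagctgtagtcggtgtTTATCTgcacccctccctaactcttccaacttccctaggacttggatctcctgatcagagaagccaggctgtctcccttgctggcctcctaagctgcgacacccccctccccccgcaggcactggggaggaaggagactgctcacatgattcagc

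The second start of Slc20a1 was preceded by 3 matches to the TEAD letters and 1 to those of SP1, and the first start by 2 matches to SP1 alone. The Slc34a2 window held 1 match each for TEAD and TFAP2, and the Slc24a5 window 1 for GATA. Slc4a2, a bicarbonate exchanger gene, was lower in the ICM library by more than Slc34a2. Both its windows held 0 matches to any of the 5 and are not printed. Over the 11 windows, TFAP2 letters were found in 4, TEAD in 3, GATA in 1, CDX in 1 and SP1 in 6. The windows at the neighbouring starts of Slc12a7 overlap and share sequence. Among all 32851 promoter windows of the same length, the shares were 13.7% for TFAP2, 12.6% for TEAD, 9.99% for GATA, 10.8% for CDX and 32.7% for SP1. These matches are descriptions of the letters, and which start was used in these embryos was not measured.

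The libraries held 9271198 reads on listed genes for the whole blastocyst and 4125479 for the ICM, of which 13765 and 4158 fell on the 52 members. Levels are the authors' RPKM, which divides the reads of a gene by its length and by a total for its library. Ratios are given with exact 95% intervals from the reads, which cover counting error only, and with no replicate no test was possible. The ICM library had lower values for most genes. The 3013 genes whose RPKM reached 5 in each library had a median log2 difference of -0.66. Values relative to that median are called centred, and centring multiplies a ratio by 1.58. Marker genes were checked against the labels, with 2-fold calls on the scale log2(RPKM + 1). All 8 trophectoderm markers were at least 2-fold lower in the ICM library (summed RPKM 1659 and 52.4), and 6 of 7 epiblast markers at least 2-fold higher (41.6 and 242). Of 6 primitive endoderm markers 4 were measured and 3 were at least 2-fold higher (summed RPKM 33.7 and 98.3), while Foxa2 had no read. The other measured one was lower, at an RPKM of 31.2 and 22.7, a ratio of 0.727 (0.674 to 0.783). Of 6 cumulus and uterine markers 4 were measured, 2 at least 2-fold lower, 1 at least 2-fold higher and 1 within 2-fold (summed RPKM 44.1 and 3.85). The 1 within 2-fold on that scale was 3.30-fold lower by RPKM alone (2.48 to 4.45). The higher one, Cyp19a1, had 0 and 91 reads, while Cyp11a1 had 324 and 0 and Wfdc2 158 and 7. Of 6 kidney and gut markers 2 were measured (4.25 and 0.137), and the defining carriers Slc12a3, Slc34a1 and Slc26a3 had no read in either library. Of the 3 blood markers listed, 1 was measured (summed RPKM 3.71 and 0.410) and Hbb-b1 had no read. The trophectoderm markers were lower in the same library as the lower members below, and their part in the results was not tested, nor was that of the other markers.

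Of the 52 members, 17 reached an RPKM of 1 in at least 1 library, 19 had reads below that level and 16 had no read in either. Among the 17, 9 were at least 2-fold lower in the ICM library (52.9%) and 1 was at least 2-fold higher (5.88%), on the scale log2(RPKM + 1). Over all 8981 genes measured in the same way, 44.0% were at least 2-fold lower and 8.96% at least 2-fold higher. As deposited, the members' shares thus lay near those of all genes. The median difference of the members was -1.02, beside -0.84 over all measured genes. Centred, 7 of the 17 were at least 2-fold lower (41.2%, beside 20.5% of all genes) and 1 at least 2-fold higher (5.88%, beside 16.9%), with medians of -0.36 and -0.19.

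**Figure D1:**
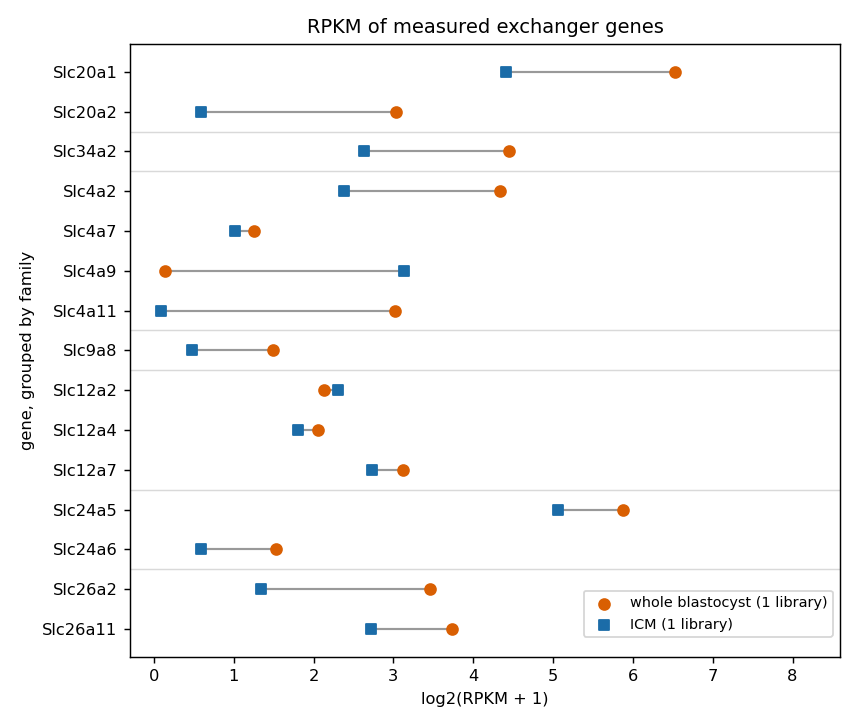
RPKM of 15 measured members in the whole-blastocyst library (circles) and the ICM library (squares), on a log2(RPKM + 1) axis, grouped by family. Slc20a1 and Slc24a5 had the highest levels in both libraries, and the ICM square lies right of the circle for Slc4a9 and Slc12a2 alone.

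The phosphate importers were lower in the ICM library. Slc20a1 encodes PiT1, a widely expressed sodium-phosphate cotransporter that also serves as a retrovirus receptor. The intact embryo gave 3791 reads and an RPKM of 91.0 and the ICM 714 reads and 20.3, a level 4.47-fold lower (4.13 to 4.85). Its only family partner, Slc20a2 (PiT2), went from 441 reads and 7.16 to 26 reads and 0.501, which was 14.3-fold lower (9.62 to 22.1). Slc34a2 encodes NaPi-IIb, the sodium-phosphate cotransporter of lung and gut epithelium. Its RPKM was 20.8 (2501 reads) in the intact embryo and 5.19 (525 reads) after immunosurgery, 4.01-fold lower (3.65 to 4.42). Centred, the 3 genes were still lower, by 2.84-fold, 9.06-fold and 2.54-fold. The kidney forms Slc34a1 and Slc34a3 had no read in either library.

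The bicarbonate family held the most extreme members in both directions. Slc4a2, the chloride-bicarbonate exchanger AE2, had 237 reads and an RPKM of 19.1 in the intact embryo. The ICM library gave 44 reads and 4.22, a level 4.54-fold lower (3.28 to 6.41). Slc4a11, a carrier known from the corneal endothelium, had 127 reads in the intact embryo and 1 in the ICM library. Its RPKM of 7.14 and 0.0668 gave a ratio of 107-fold lower with a wide counting interval (18.9 to 4259). Slc4a9, known as AE4 from the kidney collecting duct, went the other way. The intact embryo gave 1 read (RPKM 0.0979) and the ICM library 67 reads (7.78). Slc4a9 was 79.5-fold higher (13.8 to 3188) and the only member at least 2-fold higher as deposited. The intact embryo contains its ICM and was a separate sample, and the reason for so large a ratio was not tested. The sodium-bicarbonate cotransporter Slc4a7 (NBCn1) had 242 and 149 reads and an RPKM of 1.39 and 1.02, a ratio of 0.731 (0.592 to 0.900). Centred, that ratio was 1.15 with an interval across 1 (0.934 to 1.42). The other 5 had few reads: Slc4a1, the red cell band 3 exchanger, had 4 and 0, Slc4a3, Slc4a4 and Slc4a8 had 1 and 3 each, and Slc4a10 had 0 and 8.

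Of the 10 listed sodium-proton exchangers, 2 were measured and 5 had no read in either library. Slc9a8, which encodes NHE8 of the Golgi and apical membranes, was lower at 1.82 and 0.390 (222 and 40 reads), 4.68-fold (3.33 to 6.72). On the scale with the pseudocount of 1 its difference was -1.02, and centred -0.36, so its call as 2-fold lower on that scale was lost with centring. Its centred RPKM ratio, without the pseudocount, was 0.337 (0.235 to 0.474), or 2.96-fold lower. Slc9a5 had 23 and 6 reads, a ratio of 0.310 (0.103 to 0.782). Slc9a7 had 1 read, in the ICM. Slc9a2, Slc9a3, Slc9a4, Slc9a9 and Slc9a10 (current symbol Slc9c1, the sperm form) had no read in either library. Slc9a2 and Slc9a3 are the apical forms of kidney and gut epithelium.

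Among the 17 measured members and apart from Slc4a9, the 3 highest ratios of ICM to whole blastocyst belonged to cation-chloride cotransporters. Slc12a2 encodes NKCC1, which loads cells with sodium, potassium and chloride. It had 439 reads (RPKM 3.36) in the intact embryo and 436 (3.96) in the ICM library. The ratio was 1.18 (1.03 to 1.35), or 1.86 centred (1.63 to 2.13). The potassium-chloride cotransporters extrude chloride. Slc12a7 (KCC4) had 7.67 and 5.65 on 656 and 407 reads, a ratio of 0.736 (0.649 to 0.835). That was close to the 0.731 of Slc4a7 (0.592 to 0.900), and the intervals overlap. Slc12a4 (KCC1) had 3.14 and 2.50 on 82 and 55 reads, a ratio of 0.796 with an interval across 1 (0.555 to 1.13). The neuronal form Slc12a5 had 4 and 1 reads and the kidney form Slc12a1 0 and 1. Slc12a9, below an RPKM of 1, had 53 and 4 reads, a ratio of 0.0896 (0.0235 to 0.243). Slc12a3 and Slc12a8 had no read.

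Of the calcium exchangers, a gene known from pigment cells had the highest ICM level of all the members. Slc24a5 encodes NCKX5, a potassium-dependent sodium-calcium exchanger of melanosome precursors in which variants affect skin and coat pigment. It had 1854 reads (RPKM 57.8) in the intact embryo and 872 (32.3) in the ICM library. Slc24a5 thus had a ratio of 0.558 (0.515 to 0.605), or 0.881 centred (0.812 to 0.955). In the GENCODE M21 annotation 36.5% of its exonic bases lie on the opposite strand to exons of Myef2, a gene with 123 and 171 reads (RPKM 16.8 and 27.7). The use of strand in counting is not given, so the reads of the pair may be mixed, and this was not tested. Slc24a6 (current symbol Slc8b1, the mitochondrial sodium-calcium exchanger NCLX) had 99 and 22 reads and an RPKM of 1.89 and 0.498. Its ratio was 3.79-fold lower (2.37 to 6.32), whereas on the scale with the pseudocount its difference of -0.95 was not past 2-fold. The cardiac exchanger Slc8a1 had 33 and 52 reads, a ratio of 1.87 (1.19 to 2.99), at an RPKM of only 0.0459 and 0.0859. Slc24a1 and Slc24a3 had 7 reads each in the ICM library and 0 in the whole blastocyst, and Slc24a2 had 2 and 4. Slc8a2, Slc8a3 and Slc24a4 had no read.

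Both measured anion transporters of the Slc26 family are known to carry sulfate, and both were lower in the ICM library. Slc26a2, which supplies sulfate for proteoglycan synthesis, had 1264 reads (RPKM 10.01) in the intact embryo and 163 (1.53) in the ICM library. It was 6.53-fold lower (5.55 to 7.74), and 4.14-fold lower centred. Slc26a11 had 494 and 188 reads and an RPKM of 12.3 and 5.56, 2.21-fold lower (1.87 to 2.63). Centred, Slc26a11 was 1.40-fold lower and no longer past 2-fold. Slc26a1 had 6 and 0 reads, Slc26a4 (pendrin, of the inner ear and thyroid) 0 and 1, Slc26a5 (prestin, of the outer hair cells) 2 and 0, and Slc26a9 2 and 1. Slc26a3, Slc26a6, Slc26a7 and Slc26a8 had no read.

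**Figure D2:**
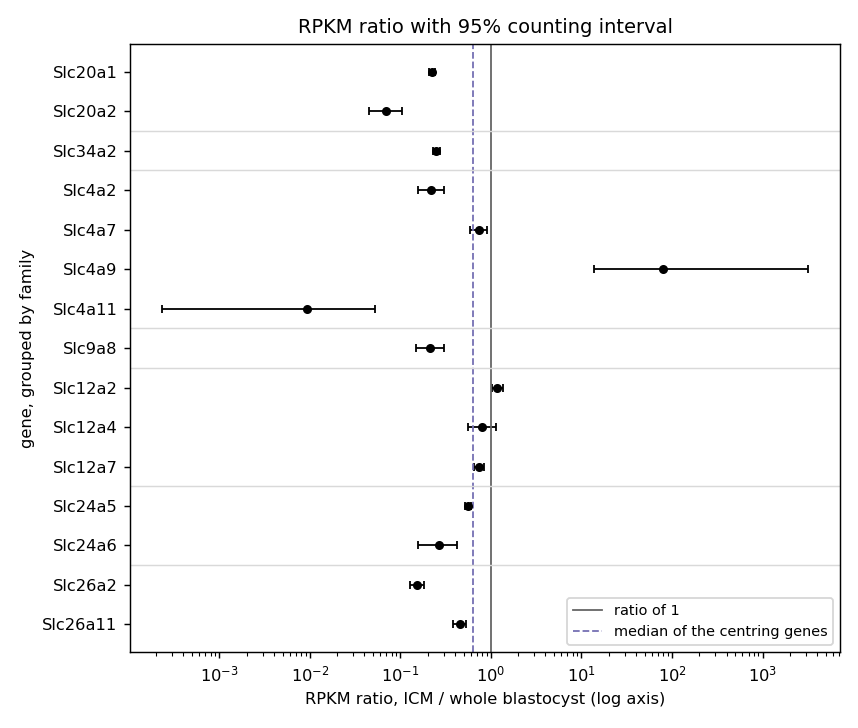
RPKM ratio of the ICM to the whole blastocyst for 15 measured members on a log axis, with 95% counting intervals from the reads of 1 library each. The solid line marks a ratio of 1 and the dashed line the median of the genes used for centring. The intervals of Slc4a9 and Slc4a11 are wide because 1 library of each pair held 1 read.

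Comparing members of a family with each other removes the scaling between the libraries. The 17 measured members gave 16 pairs within a family, and the ratio of ratios had an interval that excluded 1 in 15 of them. In 13 pairs the change was 2-fold or more, and in 11 the whole interval was above 2-fold. The pairs share members, and no such counts were made over pairs of other genes. Whether these counts are particular to the families is therefore not known. The RPKM of Slc20a1 was 12.7 times that of Slc20a2 in the intact embryo and 40.6 times in the ICM library. That was a 3.19-fold change (2.13 to 4.98). Slc12a2 was 0.438 times Slc12a7 in the intact embryo and 0.701 times in the ICM library, a 1.60-fold change (1.33 to 1.93).

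The pair Slc12a4 and Slc12a7 was the one whose interval held 1, at 1.08 (0.737 to 1.58). The ratio of Slc4a7 to Slc4a2 was 3.32-fold higher in the ICM (2.24 to 4.97), and 14.9% of the exonic bases of Slc4a2 lie opposite exons of Fastk (147 and 96 reads). Fastk is a gene of the opposite strand, and with strand use in counting not stated the reads of the pair may be mixed. Also higher in the ICM were the ratio of Slc26a11 to Slc26a2, by 2.95-fold (2.32 to 3.76), and that of Slc24a5 to Slc24a6, by 2.12-fold (1.31 to 3.55). The other 5 Slc4 pairs involve Slc4a9 or Slc4a11, each with 1 read in 1 library, and the ratio of Slc4a2 to Slc4a11, for example, was 23.6-fold higher with an interval from 3.90 to 960.

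The order of levels was led by the same genes in both libraries. In the whole blastocyst Slc20a1 had the highest RPKM of the members (91.0), followed by Slc24a5 (57.8), Slc34a2 (20.8) and Slc4a2 (19.1). In the ICM the order was Slc24a5 (32.3), Slc20a1 (20.3), Slc4a9 (7.78) and Slc12a7 (5.65). A level on this scale depends on the length the authors used. The quotient of reads and RPKM, divided by the exonic length in GENCODE M21, should be 1 constant if that length were the exonic one, but it ran from 2.66 for Slc4a2 to 28.8 for Slc34a2, with a median of 16.4 over the members. Over 5910 genes with at least 100 whole-blastocyst reads, the central 90% of values ran from 4.35 to 39.9. Slc4a2 and Slc4a9 (2.97) lay below that range, so their RPKM is high for their reads. By reads per exonic kilobase in the whole blastocyst, Slc20a1 (1097), Slc24a5 (949) and Slc34a2 (599) remained in the first 3 places, while Slc4a2 (51.0) moved from place 4 to place 11. In the ICM, Slc24a5 (446), Slc20a1 (207) and Slc34a2 (126) led, and Slc4a9 (19.5) moved from place 3 to place 9. The RPKM ratio of the libraries for 1 gene does not depend on this length. The difference on the scale log2(RPKM + 1) and the RPKM minimum do, and so do the 2-fold calls.

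Each member was examined under 5 scalings of the libraries. Slc20a1, Slc20a2, Slc34a2, Slc4a2, Slc4a11 and Slc26a2 were at least 2-fold lower under all 5 (as deposited, centred, TPM, quantile normalization and scaling to the listed reads), and Slc4a9 was at least 2-fold higher under all 5. Slc4a7, Slc12a4, Slc12a7 and Slc24a5 changed sign between scalings, each starting below 0 as deposited. Slc12a2 was above 0 under all 5, from 0.19 to 1.16. The share of all measured genes past 2-fold under all 5 scalings was not counted. Under TPM, 8 of the 17 were at least 2-fold lower (47.1%, beside 29.5% of all genes) and 2 higher (11.8%, beside 22.0%). Under quantile normalization the counts were 7 (41.2%, beside 21.1% of all genes) and 1 (5.88%, beside 18.7%). Scaled to the listed reads they were 7 (41.2%, beside 25.7%) and 1 (5.88%, beside 19.1%).

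**Figure D3:**
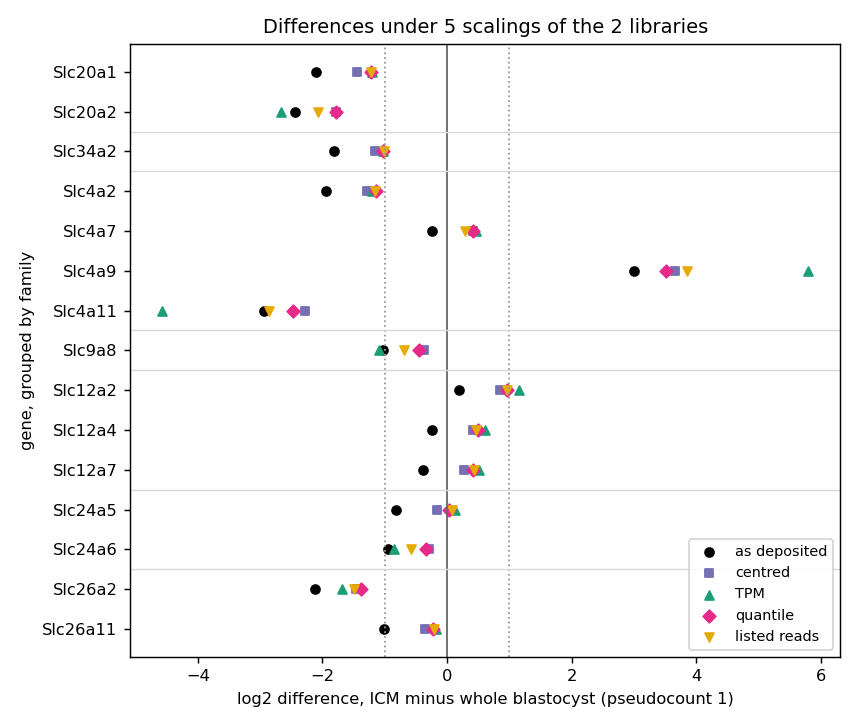
Log2 difference of 15 measured members, ICM minus whole blastocyst with a pseudocount of 1, under 5 scalings of the libraries. Dotted lines mark 2-fold. For 6 members all 5 marks lie at or below -1, for Slc4a9 all lie above 1, and for 4 members the marks lie on both sides of 0. The matching shares of all genes were not counted.

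As deposited, regulators and scaffolds of these carriers were mostly lower in the ICM library. Of 23 genes in a list of such partners 21 were listed and 17 measured. Of these 17, 11 were at least 2-fold lower and 1 at least 2-fold higher as deposited, with a median of -1.33, against the 44.0% and 8.96% of all genes given above. Centred, 6 of the 17 were lower and 2 higher, beside 20.5% and 16.9% of all genes. The PDZ scaffolds that anchor apical exchangers and phosphate carriers were far apart. Pdzk1 had 242 and 6 reads (33.98-fold lower, 15.4 to 93.5) and Pdzd3 383 and 14 (23.0-fold lower, 13.6 to 42.6), whereas Slc9a3r2, which encodes NHERF2, was 2.20-fold higher (1.92 to 2.52) at 6.56 and 14.4.

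In the kinase pathway that switches the Slc12 cotransporters, Wnk1 had an RPKM of 88.2 and 34.5 (2.55-fold lower, 2.45 to 2.66) and its substrate kinase Oxsr1 23.1 and 8.53 (2.71-fold lower, 2.29 to 3.23). Wnk2 had 44 and 0 reads, Wnk4 2 and 0, and the other substrate kinase Stk39 1 and 0. Cul3, a ubiquitin ligase scaffold that limits WNK kinases, had 129.6 and 27.9 (4.65-fold lower, 4.22 to 5.12). The kinase gene Sgk3 was 23.6-fold lower (18.0 to 31.5), while Sgk1 had 20.1 and 13.8. Chp1 (listed under an older symbol), a calcineurin-like partner of sodium-proton exchangers, had 30.4 and 14.03, 2.16-fold lower (2.01 to 2.33). Xpr1, the phosphate exporter, had 8.09 and 6.80, a ratio of 0.840 (0.783 to 0.900), beside the lower ratios of all 3 measured phosphate importers. Ezr, which links such scaffolds to actin, was at 28.2 and 38.7, a ratio of 1.37 (1.29 to 1.47). Centred, the log2 differences of Wnk2 (-1.88), Cul3 (-1.52), Sgk3 (-2.17) and Ezr (1.10) were past 2-fold. Those of Wnk1 (-0.67), Oxsr1 (-0.68), Chp1 (-0.40), Sgk1 (0.15) and Xpr1 (0.44) were not.

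The pumps, channels and carbonic anhydrases that share ions with the exchangers lay on both sides. Of 34 listed, 22 were measured, 12 were at least 2-fold lower and 4 at least 2-fold higher as deposited (median -1.02), beside 44.0% and 8.96% of all genes. Centred, the counts were 4 and 5 of the 22, beside 20.5% and 16.9% of all genes. The sodium pump's beta subunit gene Atp1b1 had an RPKM of 207.6 and 87.3 (2.38-fold lower, 2.29 to 2.46). Another beta subunit gene, Atp1b3, had 130.1 and 132.0, a ratio of 1.01 (0.977 to 1.05). The third measured one, Atp1b2, was higher in the ICM library, at 11 and 122 reads and an RPKM of 0.147 and 1.94 (13.2-fold, 7.10 to 27.1). Centred, the log2 differences were -0.58 for Atp1b1, 0.68 for Atp1b3 and 2.01 for Atp1b2. Fxyd6, a small modulator of the pump, had 1184 reads in the intact embryo and 0 in the ICM library. Against a floor of 3 ICM reads it was at least 332-fold lower, and by the exact limit 270-fold.

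Calcium pump genes differed in direction. The plasma membrane pump gene Atp2b1 was 2.90-fold lower (2.45 to 3.45), whereas Atp2a2, the pump of the endoplasmic reticulum, had 39 and 115 reads and was 3.50-fold higher (2.41 to 5.17). Mcu, the mitochondrial calcium uniporter that fills the store which NCLX empties, had 62 and 3 reads, 17.4-fold lower (5.69 to 86.7). Centred, the log2 differences were -0.70 for Atp2b1, 1.86 for Atp2a2 and -1.18 for Mcu. Subunits of the epithelial sodium channel were near 0, with Scnn1a at 7 and 1 reads, Scnn1b at 1 and 0 and Scnn1g at 0 in both libraries.

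**Figure D4:**
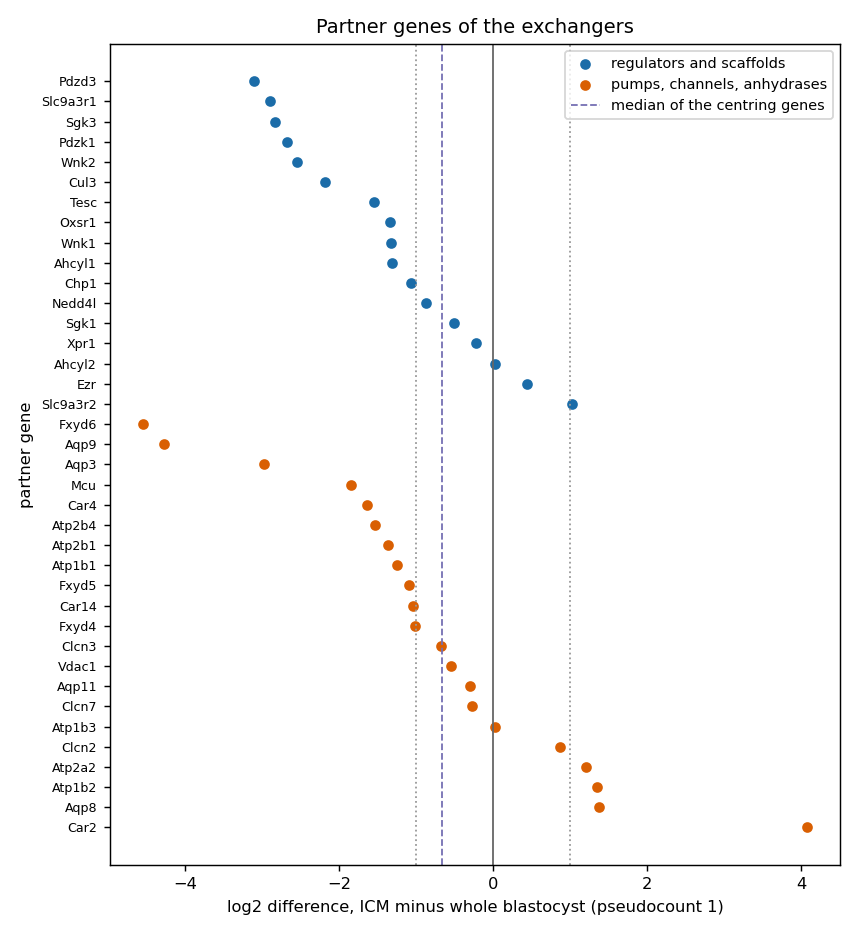
Log2 difference of 38 measured partner genes, ICM minus whole blastocyst with a pseudocount of 1, ordered within the list of regulators and scaffolds and the list of pumps, channels and carbonic anhydrases. Dotted lines mark 2-fold and the dashed line the median of the centring genes. Most regulators lie left of 0, and Fxyd6 and Car2 lie farthest out on each side.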

How the data were processed

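RNA of 1 whole-blastocyst and 1 ICM library was extracted, amplified with the NuGEN Ovation system and made into SOLiD libraries, per the labels' protocols. The authors deposited 1 table with a read count and an RPKM per gene and library. Per the submitters' processing notes, reads were placed on mm9. For the aligner, annotation, strand use and reads with several hits, the labels and headers state nothing. RPKM per read kept 1 ratio between libraries over all genes. It put the ICM total behind the deposited RPKM at 0.842 of the whole-blastocyst total, beside 0.445 for the listed read counts.

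Differences were log2((ICM RPKM + 1)/(whole-blastocyst RPKM + 1)) for genes reaching an RPKM of 1 in either library, and understate low genes. Ratio intervals were exact conditional (Clopper-Pearson, 95%), and those between 2 genes were conditional odds ratios (scipy 1.17.1). With 1 library per group no p-value was computed. Names, exonic lengths and exon overlaps came from RefSeq GRCm38.p6 and GENCODE M21, and sequences from RefSeq. The code for the ratio intervals was run on simulated independent counts, which checks the code and not its use on amplified reads. Members were to be named in full, but some genes are not reported here, although all members count in the totals. Partner and marker lists and the members were chosen with earlier results of these data known. Amplified reads are not independent molecules. Alternatives were the pseudocount, the filter, the scaling, a read minimum and leaving out overlapped members.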

Additional observations from a re-analysis of the deposited data

How the results depend on the processing

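With 1 library per group nothing could be left out or set against a spread, and no paired analysis was possible because each group has 1 library. The count of members at least 2-fold lower was 9 of 17 and ranged from 7 to 10 over the alternatives, some with another number of members. It was 9 of 36 without a filter (25%, beside 28.2% of all genes). At an RPKM of 5 or more it was 8 of 12 (66.7%, beside 48.7%). With 50 or more reads it was 9 of 19 (47.4%, beside 41.8%), and with a pseudocount of 0.1 it was 10 of 17 (58.8%, beside 51.2%). The share of all genes at least 2-fold lower ranged from 20.5% (centred) to 51.2% (pseudocount of 0.1). The count at least 2-fold higher was 1, and 2 with TPM, which added Slc12a2. The median difference of -1.02 moved to -1.73 with a pseudocount of 0.1, -0.16 without a filter (36 members), -1.79 at an RPKM of 5 or more (12 members), -0.36 centred, -0.85 with TPM, -0.34 with quantile normalization and -0.57 scaled to the listed reads. In the same order, the medians of all genes were -1.05, -0.34, -0.96, -0.19, -0.11, -0.08 and -0.13. Without a filter the members' median thus lay above that of all genes. Over all genes, the count at least 2-fold higher was 805 as deposited, 1516 centred, 1978 with TPM, 1682 with quantile normalization and 1718 scaled to the listed reads. The counts at least 2-fold lower were 3950, 1838, 2649, 1893 and 2312. The cause of these moves was not tested, except that fewer or more genes enter under another filter. A choice made after seeing the data left out the 3 members whose exons overlap another gene by over 10% of their bases. Slc4a2 and Slc24a5 were among them. The remaining 14 members gave 7 lower and 1 higher, with a median of -0.98. Over the 8978 genes in that setting, 44.0% were at least 2-fold lower and 8.97% at least 2-fold higher, with a median of -0.84. No member that was past 2-fold changed sign. Depth limited Slc4a9 and Slc4a11, which had 1 read in 1 library.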
